A study of Mus musculus with 27 samples.

Results

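The genes described here are the axon guidance ligands and receptors of mouse ESCs, taken as every row of 3 deposited RNA-seq tables whose gene symbol names an Eph receptor, an ephrin, a semaphorin, a plexin, a neuropilin, a Slit, a Robo, a netrin, an Unc5 receptor or Dcc. This rule used names and no measured value, and it found 69 genes among the 27080 listed. They comprised 14 Eph receptors, 8 ephrins, 20 semaphorins, 9 plexins, 2 neuropilins, 3 Slits, 4 Robo receptors, 4 netrins and 5 netrin receptors. RNA-seq was made in J1 cells, a mouse ESC line grown without feeders in medium with LIF. Cells infected with lentivirus for 1 of 2 shRNAs against Gas41 (shGas41-1, 3 libraries; shGas41-2, 2 libraries) were harvested 8 days after infection and compared with cells that carried a non-targeting control vector (shNT, labelled shCon in the labels, 3 libraries). A separate set of control-vector cells was measured undifferentiated (EB day 0, 2 libraries) and after 6 days as embryoid bodies, which are aggregates that differentiate without LIF (EB day 6, 2 libraries). The labels describe infected, selected populations of 1 cell line and do not say whether libraries of a group came from separate cultures. The study's methods speak of biological repeats for its experiments in general without naming these libraries, so the tests are read as measuring the spread between them, which may be in part technical.

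Guidance molecules tell a growing axon or a migrating cell where to go. Ephrins are membrane-bound ligands of the Eph receptor tyrosine kinases, and A-type ephrins mainly engage EphA receptors while B-type ephrins mainly engage EphB receptors. Semaphorins act through plexins, and the secreted class 3 semaphorins mostly need a neuropilin as co-receptor. Slits act through Robo receptors, and netrins through Dcc and the Unc5 receptors. Outside the nervous system the same families pattern tissue boundaries and blood vessels in the early embryo. Gas41, encoded by Yeats4, is a shared subunit of the chromatin complexes that place the histone variant H2A.Z, and the study asked what happens to developmental genes of ESCs when it is depleted.

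Many developmental genes that ESCs keep silent have promoters rich in the dinucleotide CG, so the sequences around the start sites were examined first. RefSeq windows of 250 bases before to 50 after a start site (build GRCm38.p6) were found for 59 of the 69 genes. The median of the members' 75 windows was 19 CG dinucleotides and 64.3% GC, against 7 CG dinucleotides and 52.7% GC over all 32851 windows. The letters GGGCGG, a GC box, were present on either strand in 70.7% of the members' windows and in 35.7% of all windows, and TATAAA was present in 2.67% and 13.6%. Windows are shown for 3 of the members that rose with both shRNAs, for Sema6c, which had the strongest fall with shGas41-1, and for Epha1, which had a low level in ESCs and had the highest level of all members at EB day 6. Each is written 5′ to 3′ on the strand of its gene, with every CG dinucleotide in capitals.
Efnb2: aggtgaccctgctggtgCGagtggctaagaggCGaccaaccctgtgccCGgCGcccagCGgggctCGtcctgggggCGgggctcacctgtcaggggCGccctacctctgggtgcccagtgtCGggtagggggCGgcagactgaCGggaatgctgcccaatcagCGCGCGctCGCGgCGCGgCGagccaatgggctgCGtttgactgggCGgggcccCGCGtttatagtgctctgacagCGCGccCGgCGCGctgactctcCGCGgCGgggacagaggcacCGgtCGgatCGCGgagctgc
Plxnc1: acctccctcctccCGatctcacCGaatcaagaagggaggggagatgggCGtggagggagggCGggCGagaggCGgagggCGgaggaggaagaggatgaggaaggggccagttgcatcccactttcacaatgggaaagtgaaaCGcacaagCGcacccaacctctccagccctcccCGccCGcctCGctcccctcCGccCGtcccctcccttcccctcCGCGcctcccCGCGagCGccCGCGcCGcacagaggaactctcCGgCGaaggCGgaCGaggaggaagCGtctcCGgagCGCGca
Sema7a: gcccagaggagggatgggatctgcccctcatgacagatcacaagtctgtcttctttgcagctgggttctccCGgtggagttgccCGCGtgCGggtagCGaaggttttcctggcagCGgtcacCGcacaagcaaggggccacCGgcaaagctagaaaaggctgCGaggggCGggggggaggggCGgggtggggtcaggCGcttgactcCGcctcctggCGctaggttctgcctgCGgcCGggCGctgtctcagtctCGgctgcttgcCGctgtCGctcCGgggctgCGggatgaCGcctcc
Sema6c: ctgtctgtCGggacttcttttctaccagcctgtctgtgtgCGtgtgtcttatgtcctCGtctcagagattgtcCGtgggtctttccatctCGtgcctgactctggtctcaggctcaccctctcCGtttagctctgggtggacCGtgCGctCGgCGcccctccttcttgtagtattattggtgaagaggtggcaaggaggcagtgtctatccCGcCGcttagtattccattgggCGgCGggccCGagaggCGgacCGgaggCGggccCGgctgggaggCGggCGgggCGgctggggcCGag
Epha1: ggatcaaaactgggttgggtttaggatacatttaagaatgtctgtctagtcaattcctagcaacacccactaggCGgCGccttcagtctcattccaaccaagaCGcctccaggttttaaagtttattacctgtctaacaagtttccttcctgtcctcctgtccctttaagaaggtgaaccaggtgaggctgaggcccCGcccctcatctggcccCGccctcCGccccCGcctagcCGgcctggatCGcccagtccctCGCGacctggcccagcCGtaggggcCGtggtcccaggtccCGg
The Efnb2 window (chr8:8661193-8661492, minus strand) held 35 CG dinucleotides, and 93.8% of all windows held as many or fewer. The Plxnc1 window (chr10:94944796-94945095, minus strand) held 30 and the Sema7a window (chr9:57939862-57940161, plus strand) held 23. Sema6c also had 23 in the first of its 2 windows (chr3:95160170-95160469, plus strand), as many as Sema7a. Epha1 had 14 (chr6:42373219-42373518, minus strand). All 5 windows contained GGGCGG at least 2 times, and TATAAA was found in the Efnb2 window alone.

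The knockdown was visible in every library. Yeats4 stood at 63.2, 54.5 and 52.1 CPM (a count scaled to the total of its library) in shNT, at 3.50, 4.42 and 4.79 CPM with shGas41-1 and at 8.68 and 7.68 CPM with shGas41-2. Libraries held between 59224537 and 81524773 counts. A floor of 3 counts per library is therefore at most 0.0507 CPM, for counting error only. Cell markers were summed to check the labels. The 7 pluripotency markers summed to between 4927 and 6001 CPM in the 10 libraries of ESC cultures, 5 of which were Gas41 knockdowns, and to 2224 and 2093 CPM at EB day 6. The 7 mesoderm markers summed to between 6.21 and 16.0 CPM in the former and to 1272 and 1908 CPM at EB day 6, when all 7 of them rose. The 6 endoderm markers summed to between 2.79 and 6.76 CPM in ESC cultures and to 59.1 and 148 CPM at EB day 6, while the sum of the 7 listed neural markers was 255 to 350 CPM before and 202 and 189 CPM after.

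One library stood apart in a way that touches the guidance genes. The exons of the members had a median length of 6.07 kb against 3.04 kb over all genes tested with shGas41-1. Compared with the other shGas41-1 libraries, the third shGas41-1 library had a median log2 difference of 0.30 for genes up to 1 kb and −0.49 for genes over 8 kb. The members as a whole were −0.62 in that library on this log2 scale, and they were −0.35 in the first shNT library and 0.36 in the third. Without the third shGas41-1 library, 10 members rose and 1 fell, against 11 and 2 with it. Over all genes 1376 rose and 412 fell without it, against 1444 and 438 with it. With offsets that remove the dependence on length in each library, 12 members rose and 3 fell, and 1338 and 649 of all genes did.

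**Figure D1:**
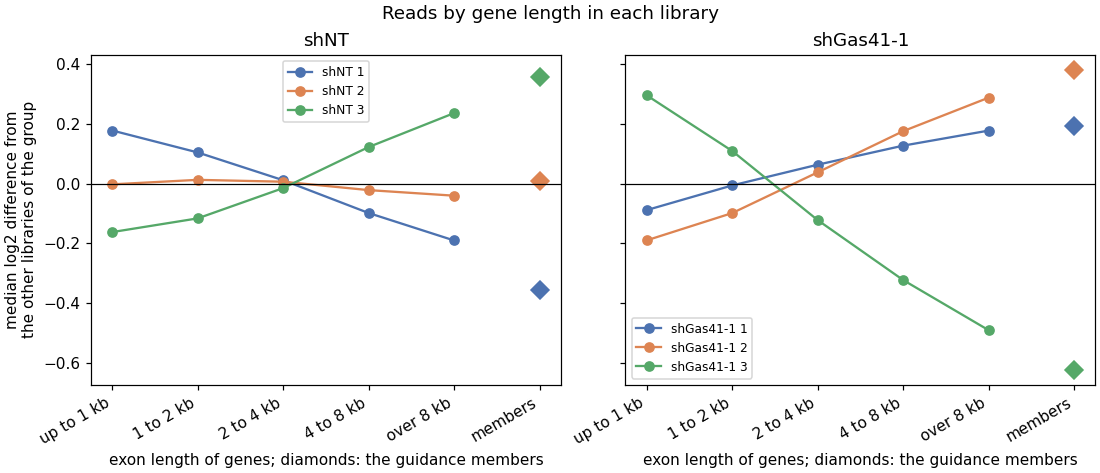
Median log2 difference of each shNT library (left) and each shGas41-1 library (right) from the other libraries of its group, for genes in 5 classes of exon length (lines) and for the guidance members (diamonds). The third shGas41-1 library falls from 0.30 for the shortest genes to −0.49 for the longest, and the members lie at −0.62 in it.

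Undifferentiated control cells already expressed a subset of the guidance genes well. Levels are compared between genes as CPM per kb of exon. Of the 69 members, 26 reached 1 CPM per kb in shNT, 18 lay between 0.1 and 1, and 25 lay lower. The receptor tyrosine kinase Epha2 had the highest level at 29.6 ± 3.53 CPM per kb (SD, n = 3), followed by Epha4 at 16.6 ± 2.30 and the secreted ligand Ntn1 at 11.1 ± 0.700, and the libraries of these 3 did not overlap with those of the next gene in the order. They were followed by the transmembrane semaphorin Sema4b (8.27 ± 1.05), the ligand Efna4 (7.61 ± 1.12), the plexin Plxnb2, a receptor of class 4 semaphorins (6.66 ± 1.40), the receptors Ephb4 (6.02 ± 0.992) and Ephb3 (4.97 ± 1.14), Sema4a (4.33 ± 0.647) and Robo1 (3.74 ± 1.20). From Sema4b downwards each gene overlapped with its neighbour in the order. Ordered by CPM without length, 9 of these 10 genes remained among the 10 highest, with Plxna1 in place of Efna4. Not every guidance gene was present. Epha6 had no count in any shNT library, and Robo2 had 2, 2 and 7 counts.

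More guidance genes rose than fell when Gas41 was depleted with shGas41-1. A gene is said here to rise or fall when the edgeR quasi-likelihood test gave an FDR (Benjamini-Hochberg adjusted p over all genes tested) of 0.05 or less, and the main counts also require a 2-fold change. Of the 61 members tested, 11 rose at least 2-fold (18.0%) and 2 fell (3.28%), while 7.9% of all genes tested rose and 2.4% fell. The share of members that fell was thus near the share of all genes. At any fold 11 members rose and 4 fell, against 10.8% and 7.73% of all genes. The members' median log2 fold change was 0.12, and the median of all genes was 0.020. By family, 5 of 20 semaphorins rose and 2 fell, 1 of 7 ephrins, 1 of 8 plexins, 1 of 3 Slits, 1 of 3 Robo receptors, 1 of 3 netrins and 1 of 4 netrin receptors rose, and none of the 11 Eph receptors or 2 neuropilins passed the test. The other 8 members, Epha3, Epha6, Ephb1, Robo2, Efna5, Unc5c, Ntn5 and Plxnb3, were below the filter on low counts. This filter can keep a low gene through its counts in 1 group alone. Robo3, Slit1 and Sema3a, which are among the 11 that rose, passed it through shGas41-1 alone, so falls of these genes could not have been counted. Sema3g, which fell, passed it through shNT alone. The number that rose was 5 when the second shNT library, the third shNT library or the first shGas41-1 library was left out. Over all genes 905, 946 and 947 rose at least 2-fold in these fits, in that order, against 1444 with every library. Among all genes with an FDR of 0.05 or less at any fold, 58.3% were higher, and 40.0% with the length-adjusted offsets.

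The second shRNA gave fewer calls. Of the 63 members tested with shGas41-2, 6 rose at least 2-fold (9.52%, against 3.96% of all genes) and 0 fell (0.869% of all genes). By family, 1 of 7 ephrins, 2 of 20 semaphorins, 2 of 9 plexins and 1 of 4 netrin receptors rose, and 0 of 11 Eph receptors, 3 Slits, 3 Robo receptors, 4 netrins and 2 neuropilins. At any fold 6 rose and 1 fell, against 5.94% and 3.97% of all genes. At an unadjusted p under 0.05 there were 19 members and 5209 genes, compared with 25 members and 6405 genes for shGas41-1. By DESeq2 4 members rose and 0 fell, and 751 and 196 of all genes did. The median log2 fold change was 0.050 for the members and −0.013 for all genes. The number that rose was 2 when the second shNT library was left out. It was also lower without either shGas41-2 library, and so was the number over all genes. Over all genes 397 rose at least 2-fold without the second shNT library, against 728 with it. Among all genes with an FDR of 0.05 or less at any fold, 60.0% were higher, and 39.4% with length-adjusted offsets and 42.7% when scaled by library size alone.

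The 4 members that rose at least 2-fold with both shRNAs, of 61 tested in both, were a ligand of EphB receptors, a netrin receptor, a plexin and a membrane-anchored semaphorin. Over all genes tested in both, 3.55% rose and 0.609% fell with both. Efnb2, a transmembrane ephrin known for its part in artery formation and in segmenting the embryo, had 4.10, 3.75 and 2.55 CPM in shNT, 26.0, 24.8 and 14.7 with shGas41-1 and 13.8 and 13.2 with shGas41-2. Every knockdown library lay above every control library, and the log2 fold change was 2.72 ± 0.25 (SE) with shGas41-1 (FDR = 0.00187) and 2.05 ± 0.20 with shGas41-2 (FDR = 0.00148). This was the largest rise among the members with shGas41-1, 6.60-fold. Unc5d, a receptor through which netrins repel, had 0.253, 0.216 and 0.193 CPM in shNT, 1.54, 1.03 and 1.05 with shGas41-1 and 1.26 and 0.674 with shGas41-2. It rose by 2.52 ± 0.29 (FDR = 0.00251) and 2.21 ± 0.36 (FDR = 0.0121), and its libraries did not overlap between control and knockdown. Plxnc1, the receptor of Sema7a, had 0.371, 0.260 and 0.414 CPM in shNT, 1.10, 1.21 and 0.773 with shGas41-1 and 0.773 and 0.774 with shGas41-2. Sema7a, which is anchored to the membrane by a lipid, had 2.55, 2.65 and 2.80 CPM in shNT, 5.48, 6.39 and 4.85 with shGas41-1 and 4.58 and 6.80 with shGas41-2. For this ligand and its receptor no control library overlapped with a knockdown library. The log2 fold changes of Plxnc1 were 1.64 ± 0.29 (FDR = 0.00761) and 1.23 ± 0.31 (FDR = 0.0461). Those of Sema7a were 1.14 ± 0.17 (FDR = 0.00374) and 1.17 ± 0.20 (FDR = 0.0141). With shGas41-2, Plxnc1 did not pass with DESeq2, with library size alone or without the second shNT library, the third or either shGas41-2 library, Sema7a did not pass without the second shNT or second shGas41-2 library, and Unc5d did not pass without the first shGas41-2 library. The number of members that rose with both was 2 without the second shNT library or without either shGas41-2 library, and 7 without the first shNT library. Such numbers were not counted over all genes in those fits. Both comparisons use the same shNT libraries.

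**Figure D2:**
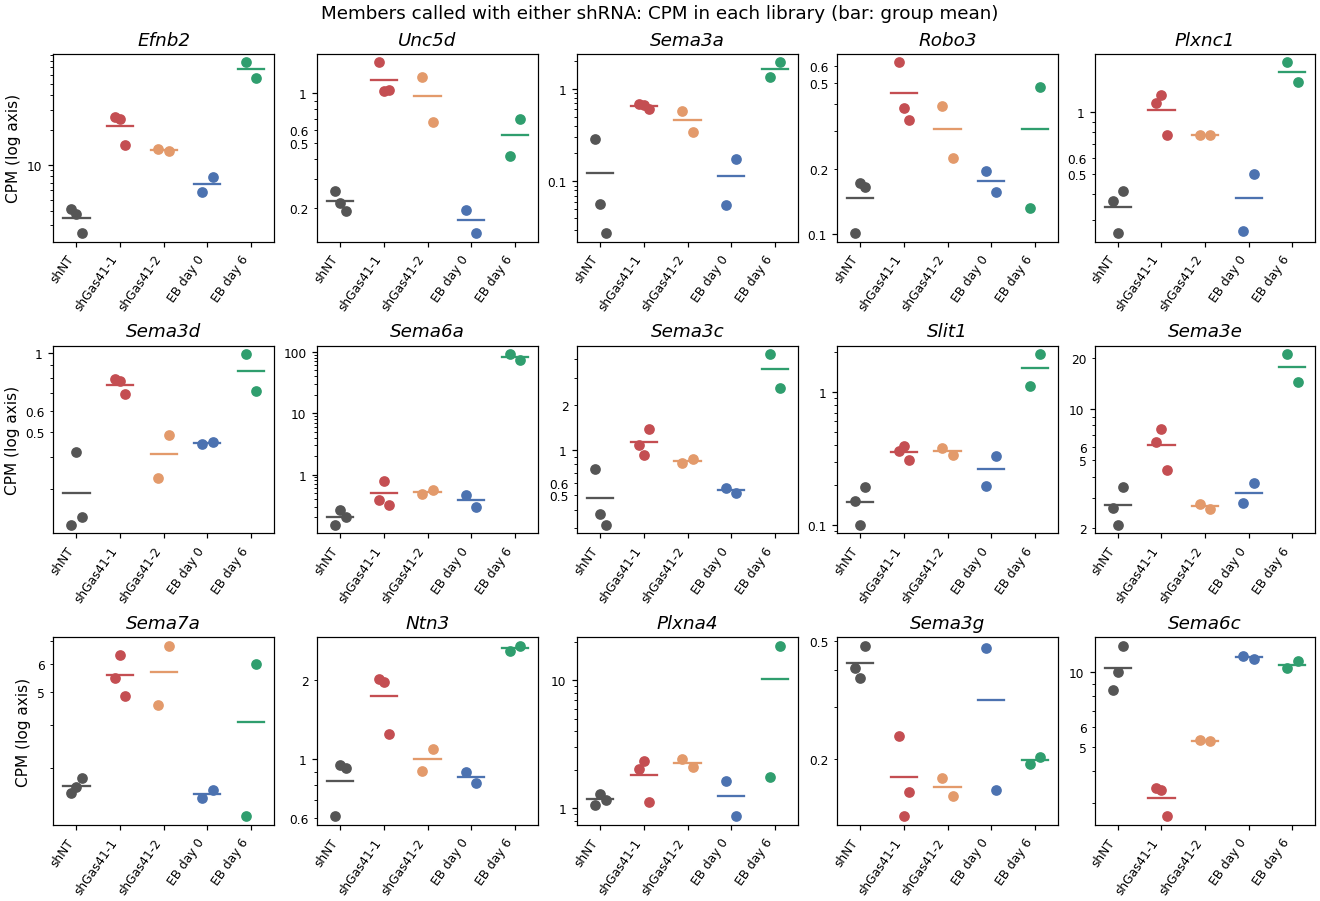
CPM on a log axis in each library (points, with bars at the group means) of shNT, shGas41-1, shGas41-2, EB day 0 and EB day 6 for the members that changed at least 2-fold with either shRNA. Efnb2 lies at 2.55 to 4.10 CPM in the control libraries and at 13.2 to 26.0 CPM in the knockdown libraries, and Sema6c lies lower in every knockdown library than in every control library.

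Class 3 semaphorins, the secreted members of the family, changed in both directions with shGas41-1, where 4 of the 7 tested rose and 1, Sema3g, fell. Of the other two, Sema3b had 3.26, 4.96 and 4.41 CPM in shNT, 2.34, 2.87 and 2.21 with shGas41-1 and 2.72 and 3.02 with shGas41-2, with a log2 fold change of −0.69 ± 0.21 (FDR = 0.0527), and Sema3f had 0.041 ± 0.27. Sema3a, which collapses growth cones through Nrp1, had 0.287, 0.0577 and 0.0276 CPM in shNT, 0.679, 0.664 and 0.603 with shGas41-1 and 0.577 and 0.337 with shGas41-2 and rose by 2.52 ± 0.62 (FDR = 0.0247). The first shNT library was higher than the other two, and without it the log2 fold change was 3.95. Sema3a passed the filter on low counts through shGas41-1 alone. Sema3c, known for its part in the outflow tract of the heart, had 0.743, 0.375 and 0.318 CPM in shNT, 1.08, 0.920 and 1.38 with shGas41-1 and 0.822 and 0.874 with shGas41-2 and rose by 1.33 ± 0.37 (FDR = 0.0388). Sema3d had 0.220, 0.418 and 0.235 CPM in shNT, 0.798, 0.779 and 0.695 with shGas41-1 and 0.331 and 0.487 with shGas41-2 and rose by 1.45 ± 0.32 (FDR = 0.0171). Sema3e, the ligand of Plxnd1 that needs no neuropilin, had 2.62, 2.08 and 3.47 CPM in shNT, 6.39, 7.62 and 4.34 with shGas41-1 and 2.75 and 2.58 with shGas41-2 and rose by 1.24 ± 0.25 (FDR = 0.0119). All 4 genes had higher values in each shGas41-1 library than in each control library, while with shGas41-2 the libraries of Sema3d and Sema3e overlapped with the controls. Their log2 fold changes with shGas41-2 were 2.02 ± 0.74 for Sema3a, 0.92 ± 0.38 for Sema3c, 0.56 ± 0.42 for Sema3d and 0.050 ± 0.24 for Sema3e, with FDR values of 0.122 to 0.913. The rises of Sema3a and Sema3c did not pass without the second shNT library, the third shNT library or the first shGas41-1 library, that of Sema3c also without the third shGas41-1 library, that of Sema3d without the third shNT or first shGas41-1 library, and that of Sema3e without the second shNT library. With the replicate number as a block, none of the 4 rises passed.

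The other 3 rises with shGas41-1 fell on a Slit, a Robo receptor and a netrin, all at low levels. Slit1, a secreted repellent of the midline, had 0.152, 0.101 and 0.193 CPM in shNT, 0.359, 0.396 and 0.309 with shGas41-1 and 0.380 and 0.337 with shGas41-2, and rose by 1.32 ± 0.36 (FDR = 0.0352). Robo3, a divergent Robo receptor that lets commissural axons cross the midline, had 0.101, 0.173 and 0.166 CPM in shNT, 0.625, 0.383 and 0.340 with shGas41-1 and 0.393 and 0.225 with shGas41-2, and rose by 1.66 ± 0.38 (FDR = 0.0195). Ntn3, a secreted netrin, had 0.608, 0.952 and 0.925 CPM in shNT, 2.02, 1.97 and 1.25 with shGas41-1 and 0.908 and 1.10 with shGas41-2, and rose by 1.14 ± 0.27 (FDR = 0.0207). In all 3 the shGas41-1 libraries lay above the control libraries. Slit1 and Robo3 passed the filter on low counts through shGas41-1 alone. With shGas41-2 the log2 fold changes were 1.34 ± 0.41 for Slit1 (FDR = 0.0788), 1.13 ± 0.45 for Robo3 (FDR = 0.151) and 0.35 ± 0.29 for Ntn3 (FDR = 0.461). Slit1 did not pass when any 1 of the 6 libraries was left out, and Robo3 and Ntn3 did not pass without any 1 of the shNT libraries or without the first shGas41-1 library. Slit1 also did not pass with DESeq2 or with no filter. With the replicate number as a block, none of the 3 passed.

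Sema6a and Plxna4, which bind one another, passed with shGas41-2 alone. Sema6a, a transmembrane semaphorin, had 0.152, 0.260 and 0.207 CPM in shNT, 0.386, 0.779 and 0.324 with shGas41-1 and 0.491 and 0.562 with shGas41-2. Its log2 fold change was 1.42 ± 0.36 with shGas41-2 (FDR = 0.0479) and 1.33 ± 0.42 with shGas41-1 (FDR = 0.0586). Plxna4 had 1.06, 1.30 and 1.16 CPM in shNT, 2.01, 2.32 and 1.11 with shGas41-1 and 2.44 and 2.08 with shGas41-2, with a log2 fold change of 1.02 ± 0.21 for shGas41-2 (FDR = 0.0241) and 0.70 ± 0.27 for shGas41-1 (FDR = 0.108). The third shGas41-1 library overlapped with the controls for Plxna4. With shGas41-2, neither gene passed with library size alone. Nor did Sema6a pass with DESeq2 or Plxna4 with length-adjusted offsets. Without the second shNT library or either shGas41-2 library neither passed, and each also lost its call without 1 other shNT library.

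Sema6c, a transmembrane semaphorin of the same class as Sema6a, had the strongest fall. It had 8.51, 9.98 and 12.8 CPM in shNT, 3.43, 3.36 and 2.64 with shGas41-1 and 5.34 and 5.28 with shGas41-2, so that both shRNAs separated from the controls and the shGas41-1 libraries lay lowest. The log2 fold change was −1.65 ± 0.19 with shGas41-1 (FDR = 0.00251) and −0.89 ± 0.19 with shGas41-2 (FDR = 0.0271), under 2-fold. Sema3g, a class 3 semaphorin, had 0.405, 0.375 and 0.483 CPM in shNT, 0.240, 0.128 and 0.155 with shGas41-1 and 0.172 and 0.150 with shGas41-2. It fell by 1.19 ± 0.35 with shGas41-1 (FDR = 0.046) and had −1.30 ± 0.37 with shGas41-2 (FDR = 0.0641), and the former did not pass when any 1 library was left out. Its fall with shGas41-1 also did not pass with DESeq2, with no filter or with the replicate number as a block. Sema5b (16.1, 16.5 and 21.4 CPM in shNT, 11.0, 8.31 and 6.43 with shGas41-1 and 12.4 and 11.3 with shGas41-2) and Plxnb2 (38.0, 49.7 and 58.5 CPM in shNT, 28.7, 34.5 and 18.9 with shGas41-1 and 27.2 and 31.8 with shGas41-2) fell by less than 2-fold with shGas41-1, with log2 fold changes of −0.998 ± 0.20 and −0.76 ± 0.22 and FDR values of 0.0115 and 0.0437. With shGas41-2 both had negative values that did not pass, −0.53 ± 0.15 and −0.64 ± 0.19.

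**Figure D3:**
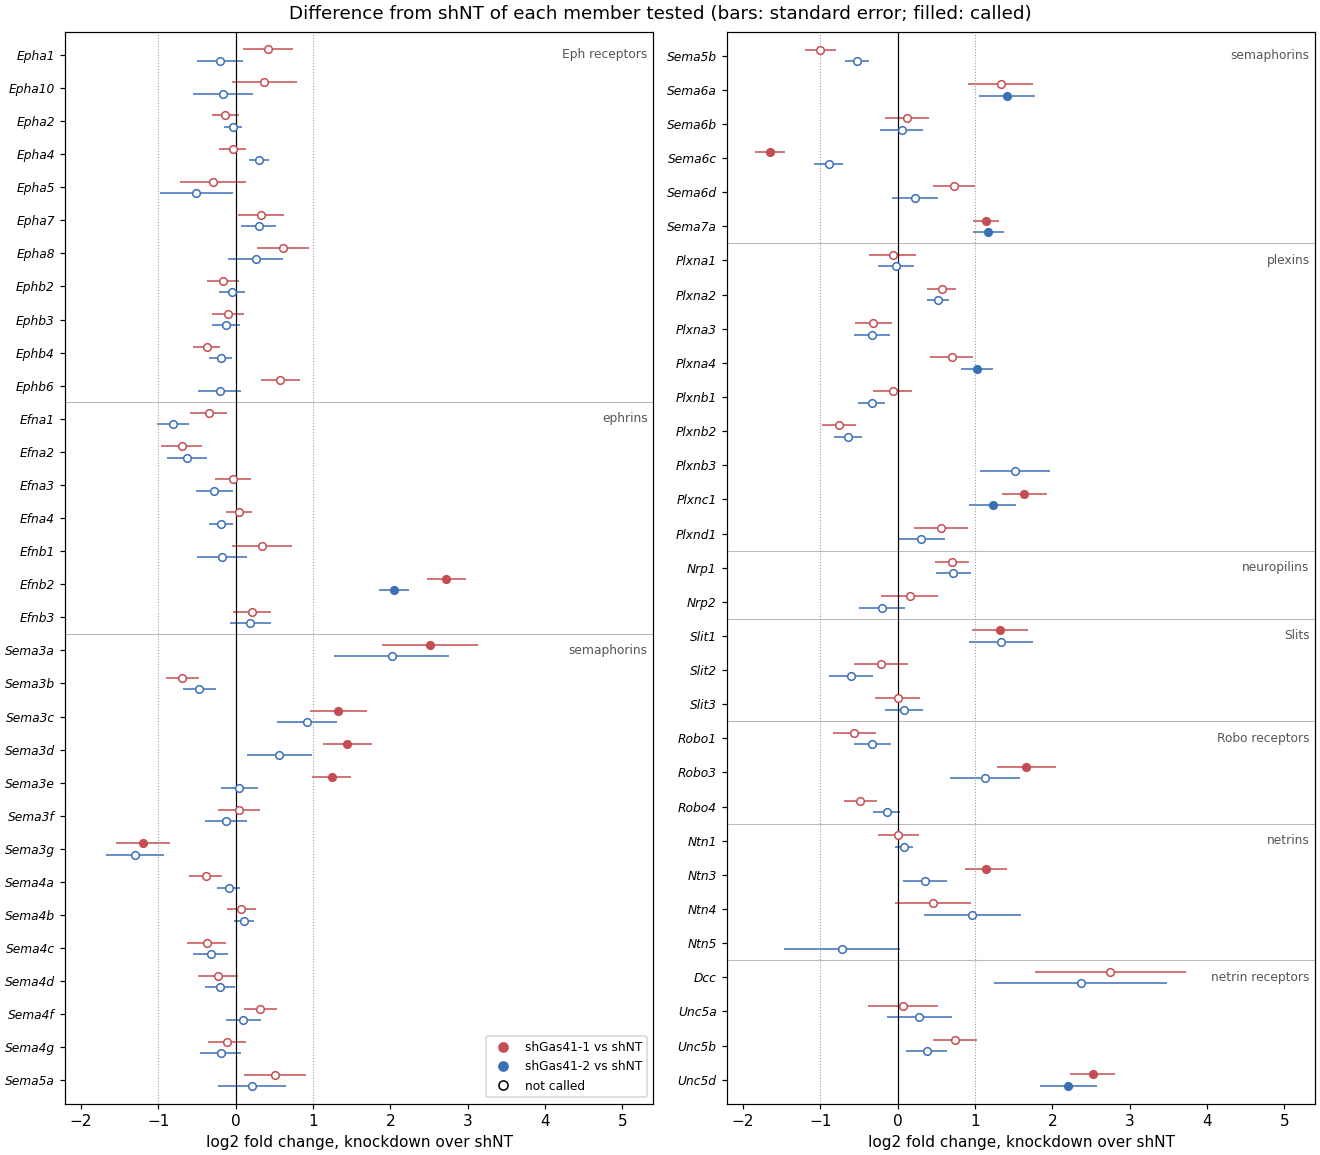
Log2 fold change against shNT with its SE for every tested member, with shGas41-1 and shGas41-2 side by side and members grouped by family. Efnb2 and Unc5d lie above 2 with both shRNAs, Sema6c lies at −1.65 and −0.89, and the tested Eph receptors lie between −0.51 and 0.61.

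The remaining members of the small families showed no call in either knockdown. Slit2 had 1.74, 2.60 and 3.34 CPM in shNT, 1.90, 3.15 and 1.25 with shGas41-1 and 1.67 and 1.53 with shGas41-2, and Slit3 had 1.77, 2.44 and 3.11 CPM in shNT, 2.63, 2.81 and 1.53 with shGas41-1 and 2.50 and 2.40 with shGas41-2. Slit3 overlapped with the controls for both shRNAs, and Slit2 for shGas41-1 alone. Among the Robo receptors, Robo1 had 25.3, 34.0 and 47.9 CPM in shNT, 27.8, 27.6 and 14.1 with shGas41-1 and 28.2 and 25.9 with shGas41-2, and Robo4, the family member of blood vessels, had 13.6, 11.3 and 14.5 CPM in shNT, 12.0, 8.54 and 6.35 with shGas41-1 and 13.2 and 9.42 with shGas41-2. Both overlapped between control and knockdown. Robo2 was under the filter on low counts, with 0.0338, 0.0288 and 0.0967 CPM in shNT, 0.0266, 0.0766 and 0 with shGas41-1 and 0.0245 and 0.0749 with shGas41-2. Nrp1 had 1.18, 1.21 and 0.884 CPM in shNT, 1.78, 1.84 and 1.44 with shGas41-1 and 1.72 and 1.68 with shGas41-2, and Nrp2 had 9.15, 13.8 and 16.1 CPM in shNT, 10.4, 23.3 and 7.83 with shGas41-1 and 7.80 and 13.6 with shGas41-2. All 5 knockdown libraries of Nrp1 lay above the controls, but the FDR was 0.0588 with shGas41-1 and 0.0859 with shGas41-2. Ntn1, the most abundant netrin, had 64.5, 72.8 and 71.1 CPM in shNT, 76.0, 89.9 and 35.2 with shGas41-1 and 63.8 and 75.5 with shGas41-2, and its log2 fold changes were 0.011 ± 0.27 and 0.086 ± 0.12. Ntn4 had 0.0507, 0.144 and 0.207 CPM in shNT, 0.200, 0.153 and 0.185 with shGas41-1 and 0.147 and 0.362 with shGas41-2, and Ntn5 had 0.253, 0.130 and 0.110 CPM in shNT, 0.0399, 0.140 and 0.0155 with shGas41-1 and 0.159 and 0.0250 with shGas41-2. Both lay near the limit of detection and overlapped between groups. Among the netrin receptors, Unc5b had 12.0, 18.8 and 22.5 CPM in shNT, 28.7, 38.1 and 18.1 with shGas41-1 and 18.0 and 25.5 with shGas41-2, and Unc5a had 0.186, 0.375 and 0.442 CPM in shNT, 0.546, 0.230 and 0.232 with shGas41-1 and 0.442 and 0.337 with shGas41-2. Their groups overlapped too. Unc5c, below the filter, had 0, 0.0144 and 0 CPM in shNT, 0.0798, 0.0255 and 0.0155 with shGas41-1 and 0 and 0 with shGas41-2. Dcc, the receptor through which netrins attract, had 0.203, 0 and 0 CPM in shNT, 0.532, 0.217 and 0.464 with shGas41-1 and 0.442 and 0.175 with shGas41-2, and its values of 2.75 ± 0.98 and 2.37 ± 1.12 did not pass (FDR = 0.0829 and 0.211). The abundant receptors Epha2 and Epha4 had log2 fold changes of −0.13 ± 0.17 and −0.037 ± 0.17 with shGas41-1 and of −0.034 ± 0.12 and 0.30 ± 0.13 with shGas41-2.

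The members with the highest levels in ESCs showed no 2-fold call with knockdown. Epha2 had 123, 137 and 156 CPM in shNT, 138, 137 and 86.2 with shGas41-1 and 126 and 129 with shGas41-2, and Epha4 had 90.1, 107 and 119 CPM in shNT, 106, 114 and 72.3 with shGas41-1 and 117 and 127 with shGas41-2. Ephb3 had 25.6, 28.8 and 39.3 CPM in shNT, 30.7, 32.6 and 20.1 with shGas41-1 and 26.4 and 27.8 with shGas41-2, and Ephb4 had 24.7, 25.9 and 33.2 CPM in shNT, 23.8, 22.3 and 15.3 with shGas41-1 and 22.6 and 23.5 with shGas41-2. Ephb4 was lower in every knockdown library than in every control library but did not pass (FDR = 0.169 and 0.429), and the other 3 receptors overlapped. The ligand Efna4 had 10.1, 13.3 and 13.1 CPM in shNT, 10.8, 13.9 and 11.0 with shGas41-1 and 9.73 and 10.4 with shGas41-2. Sema4a had 19.7, 23.9 and 26.7 CPM in shNT, 18.5, 21.5 and 11.3 with shGas41-1 and 19.8 and 21.9 with shGas41-2, and Sema4b had 40.3, 43.1 and 51.3 CPM in shNT, 53.9, 50.2 and 31.2 with shGas41-1 and 46.6 and 45.2 with shGas41-2. These 3 ligands overlapped between control and knockdown.

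The members that changed at least 4-fold at EB day 6, described further on, were mostly low in these libraries. Epha1 had 1.74, 3.17 and 3.30 CPM in shNT, 3.30, 4.98 and 2.19 with shGas41-1 and 1.94 and 2.57 with shGas41-2, Epha7 had 1.13, 0.937 and 1.08 CPM in shNT, 1.16, 1.79 and 0.803 with shGas41-1 and 1.25 and 1.19 with shGas41-2, and Epha8 had 0.490, 0.663 and 1.09 CPM in shNT, 1.42, 0.920 and 0.927 with shGas41-1 and 0.859 and 0.849 with shGas41-2. Ephb6 had 0.794, 0.721 and 1.02 CPM in shNT, 1.22, 1.44 and 0.927 with shGas41-1 and 0.687 and 0.699 with shGas41-2. None of these 4 receptors passed with either shRNA. Below the filter, Ephb1 had 0, 0.0577 and 0 CPM in shNT, 0.373, 0.0894 and 0.0927 with shGas41-1 and 0.123 and 0.150 with shGas41-2, and Epha3 had 0.0338, 0 and 0.0552 CPM in shNT, 0, 0.0383 and 0 with shGas41-1 and 0 and 0.0749 with shGas41-2. Ephb1 was above the controls in every knockdown library, at up to 0.373 CPM. Among the ephrins, Efna1 had 2.08, 1.96 and 2.33 CPM in shNT, 1.20, 1.66 and 1.87 with shGas41-1 and 1.08 and 1.21 with shGas41-2, Efna3 had 5.88, 8.71 and 8.67 CPM in shNT, 6.17, 9.53 and 5.83 with shGas41-1 and 4.85 and 7.28 with shGas41-2, and Efnb1 had 2.19, 3.85 and 4.49 CPM in shNT, 3.74, 6.78 and 2.24 with shGas41-1 and 2.33 and 3.57 with shGas41-2. Efna5, below the filter, had 0.0844, 0.0577 and 0.110 CPM in shNT, 0.133, 0.268 and 0.278 with shGas41-1 and 0.196 and 0.112 with shGas41-2. Efna1 was lower and Efna5 higher in every knockdown library than in the controls, while Efna3 and Efnb1 overlapped. Of the semaphorins, Sema4c had 1.96, 2.39 and 2.91 CPM in shNT, 2.18, 1.98 and 1.17 with shGas41-1 and 1.78 and 1.90 with shGas41-2, Sema5a had 0.220, 0.187 and 0.400 CPM in shNT, 0.319, 0.498 and 0.278 with shGas41-1 and 0.270 and 0.324 with shGas41-2, and Sema6d had 0.422, 0.591 and 0.511 CPM in shNT, 0.772, 0.971 and 0.664 with shGas41-1 and 0.564 and 0.562 with shGas41-2. Of the plexins, Plxna2 had 11.3, 9.95 and 12.0 CPM in shNT, 18.8, 17.3 and 11.0 with shGas41-1 and 16.7 and 13.3 with shGas41-2, and Plxnd1 had 0.439, 0.505 and 0.663 CPM in shNT, 0.838, 1.02 and 0.402 with shGas41-1 and 0.699 and 0.562 with shGas41-2. None of these 5 passed with either shRNA, and Sema6d was above the controls in every shGas41-1 library and Plxna2 in every shGas41-2 library.

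The 2 shRNAs were then compared directly, since a call with one and not the other does not show a difference. Of 65 members tested, 0 passed in edgeR, and 0% of the 19146 genes did. At an unadjusted p under 0.05 there were 8 members and 1348 genes. DESeq2 called 1 member at least 2-fold higher with shGas41-1 and 0 lower, while 37 of all genes were higher and 32 lower. At any fold DESeq2 called 1 member higher and 1 lower. The log2 differences of members ran from −1.30 (Plxnb3) to 1.19 (Sema3e), with a lowest FDR of 0.28. Sema3e had an SE of 0.26, and over the members the median size of the difference was 0.27 and the median SE was 0.28.

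More members changed during differentiation than with either shRNA. Of 64 members tested between EB day 6 and EB day 0, 38 rose at least 2-fold (59.4%) and 6 fell (9.38%), against 16.6% and 14.7% of all genes tested. The 38 include Ephb1, Epha3, Unc5c, Sema3a, Unc5d and Ntn4, which passed the filter on low counts through day 6 alone. At day 0 Sema3a had 4 and 11 counts, Unc5d 14 and 9 and Ntn4 9 and 19, around the filter's minimum of 10. Falls of these genes could not have been counted. At any fold 45 rose and 8 fell, against 30.5% and 28.4%. The members' median log2 fold change was 1.77, and that of all genes was −0.0030. At least 4-fold changes were seen in 28 members that rose and 4 that fell. Bulk RNA cannot tell a change in the share of cells that express a gene from a change in RNA per cell, and the mesoderm, endoderm and pluripotency markers given above moved over the same interval. Their part in the result was not tested. Day 0 and day 6 also differ in LIF and in the culture surface, which cannot be told apart from time. The labels number the EB libraries as replicates 2 and 3. Without day 0 replicate 3, fewer members rose or fell, and fewer of all genes did so too. A lone library is then taken to vary as the day 6 libraries do. Of the members changed at least 4-fold, Slit1, Plxna2, Sema6d, Efna1, Efna3, Epha8, Sema3c, Plxna4, Efnb1, Epha3 and Unc5c did not pass without it. Without day 0 replicate 2, Efna3, Plxna4, Efnb1 and Unc5c did not pass.

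Ephrins rose as a family, with 7 of 8 up at least 2-fold and Efna4 up by less. Efnb2 had 5.77 and 7.88 CPM at day 0 and 77.2 and 57.1 CPM at day 6 (3.38 ± 0.20), with both day 6 libraries far above both day 0 libraries. Values in parentheses are log2 fold changes ± SE. Efnb1, its X-linked paralog in cell sorting, had 2.42 and 4.05 CPM at day 0 and 9.85 and 25.0 CPM at day 6 (2.52 ± 0.47), and Efna3 had 6.93 and 9.90 CPM at day 0 and 20.7 and 47.9 CPM at day 6 (2.12 ± 0.40). Day 6 replicate 3 was higher in both of the latter, and without it they had log2 fold changes of 1.69 and 1.38. Efna1 had 1.44 and 2.02 CPM at day 0 and 5.71 and 9.45 CPM at day 6 (2.22 ± 0.32). Efna5 had 0.196 and 0.220 CPM at day 0 and 3.86 and 4.20 CPM at day 6 (4.35 ± 0.28), but 59.9% of its exon sequence lies under a second gene model of the same name, so its counts may be shared. Efna4 had 13.2 and 14.7 CPM at day 0 and 19.1 and 26.1 CPM at day 6 (0.78 ± 0.17), and Efna2 and Efnb3 rose by 1.67 ± 0.12 and 1.77 ± 0.16. The FDR of the 7 genes was 4e-05 to 0.00426.

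Their receptors changed in both directions, with 7 of 13 tested Eph receptors up and 1 down. Among those up, Epha3 and Ephb1 passed the filter on low counts through their day 6 counts alone. They could therefore not have been counted as falls. Epha1 had 2.41 and 2.53 CPM at day 0 and 264 and 256 CPM at day 6 (6.80 ± 0.10), which was 112-fold. Epha7 had 1.23 and 1.68 CPM at day 0 and 17.7 and 19.2 CPM at day 6 (3.75 ± 0.20), Ephb6, which lacks kinase activity, had 1.09 and 1.10 CPM at day 0 and 8.55 and 7.78 CPM at day 6 (2.98 ± 0.19), and Epha8 had 0.770 and 0.847 CPM at day 0 and 4.69 and 2.24 CPM at day 6 (2.18 ± 0.39), or 1.57 without day 6 replicate 2. Each of these rose with both day 6 libraries above both day 0 libraries. Ephb4, the receptor of Efnb2 on veins, had 24.0 and 24.9 CPM at day 0 and 66.7 and 88.0 CPM at day 6 (1.75 ± 0.15) and rose, and Ephb3 had 31.3 and 27.3 CPM at day 0 and 23.1 and 29.0 CPM at day 6 (−0.082 ± 0.14) and did not pass. Ephb1 had 1 count in all at day 0 and 201 at day 6, a ratio of CPM of 199 (exact 95% interval 35.3 to 7906, counting error only). Epha3 had 2 and 89 counts, a ratio of 44.1 (11.9 to 370). Epha4, high in ESCs, had 129 and 115 CPM at day 0 and 37.8 and 62.2 CPM at day 6 (−1.20 ± 0.22) and fell, and Epha2 had 144 and 187 CPM at day 0 and 112 and 87.2 CPM at day 6 (−0.65 ± 0.16) and fell by less than 2-fold. The FDR of the 8 genes called was 1.22e-06 to 0.00415. Epha6 had 1 and 5 counts and was not tested.

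**Figure D4:**
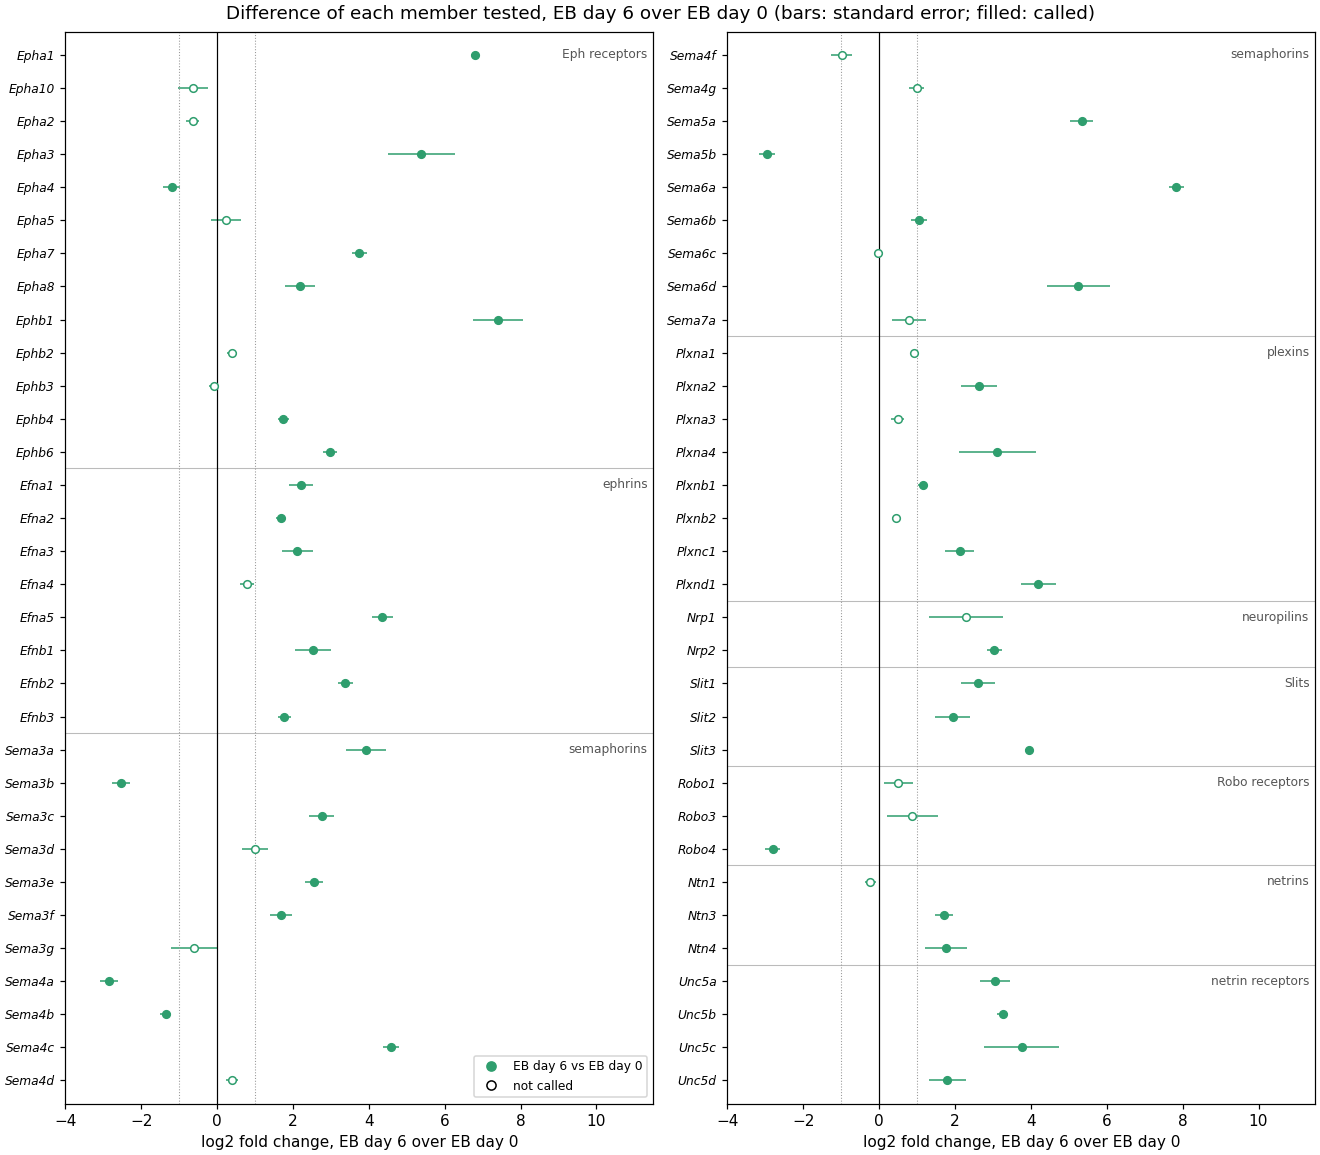
Log2 fold change of EB day 6 against EB day 0 with its SE for every tested member, grouped by family. By fitted value Sema6a (7.84), Ephb1 (7.39) and Epha1 (6.80) lie farthest to the right, and Sema5b (−2.96), Sema4a (−2.85) and Robo4 (−2.80) farthest to the left.

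Semaphorins split, with 9 of 20 up and 4 down. Sema6a had 0.462 and 0.298 CPM at day 0 and 91.8 and 74.7 CPM at day 6 (7.84 ± 0.20), 229-fold by the fit. This was the largest fitted value, though it lies within the interval of the ratio of Ephb1 given above. Sema6d, its relative, had 0.308 and 0.345 CPM at day 0 and 4.05 and 19.4 CPM at day 6 (5.25 ± 0.82), and without day 6 replicate 3 the value was 3.71. The transmembrane Sema5a had 0.434 and 0.220 CPM at day 0 and 12.6 and 12.7 CPM at day 6 (5.33 ± 0.29), and Sema4c, a ligand of Plxnb2, had 1.77 and 2.67 CPM at day 0 and 47.0 and 53.1 CPM at day 6 (4.59 ± 0.21). These 4 were low in ESCs. Of the secreted class, Sema3a had 0.0560 and 0.173 CPM at day 0 and 1.33 and 1.92 CPM at day 6 (3.92 ± 0.53), Sema3c had 0.560 and 0.518 CPM at day 0 and 4.34 and 2.57 CPM at day 6 (2.76 ± 0.34) and Sema3e had 2.77 and 3.66 CPM at day 0 and 21.1 and 14.5 CPM at day 6 (2.55 ± 0.24). Without 1 of the day 0 libraries Sema3a had 3.30 or 4.91. Sema3a passed the filter on low counts through its day 6 counts alone and could not have been counted as a fall. Sema3f and Sema6b rose by 1.68 ± 0.29 and 1.06 ± 0.21. Those that fell were genes with a clear level in ESCs. Sema5b had 23.7 and 22.0 CPM at day 0 and 3.33 and 2.20 CPM at day 6 (−2.96 ± 0.21), Sema4a had 18.8 and 17.7 CPM at day 0 and 2.94 and 1.83 CPM at day 6 (−2.85 ± 0.23), and Sema3b had 4.99 and 4.25 CPM at day 0 and 0.695 and 0.800 CPM at day 6 (−2.54 ± 0.24). Sema4b, the highest semaphorin in ESCs, had 57.2 and 51.6 CPM at day 0 and 22.9 and 17.3 CPM at day 6 (−1.36 ± 0.14). Among the semaphorins called with knockdown, Sema3d had 0.448 and 0.455 CPM at day 0 and 0.991 and 0.713 CPM at day 6 (1.00 ± 0.35) and rose by less than 2-fold, while Sema3g with 0.476 and 0.157 CPM at day 0 and 0.192 and 0.204 CPM at day 6 (−0.60 ± 0.61) and Sema7a with 2.47 and 2.59 CPM at day 0 and 2.17 and 6.02 CPM at day 6 (0.79 ± 0.45) did not pass. The FDR of the 13 genes changed at least 2-fold was 2.83e-06 to 0.00549.

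Of the semaphorin receptors, all 8 plexins tested rose at an FDR of 0.05 or less and 5 rose at least 2-fold, while 1 of the 2 neuropilins passed. Plxnb3, below the filter, had 0.154 and 0.141 CPM at day 0 and 0.0296 and 0.0145 CPM at day 6. Plxnd1, the receptor of Sema3e in blood vessels, had 0.504 and 0.235 CPM at day 0 and 4.56 and 8.41 CPM at day 6 (4.20 ± 0.46), and 4.85 without day 0 replicate 2, and Plxnc1 had 0.266 and 0.502 CPM at day 0 and 1.75 and 1.40 CPM at day 6 (2.12 ± 0.39). Plxna2 had 18.8 and 17.7 CPM at day 0 and 54.2 and 159 CPM at day 6 (2.63 ± 0.47) and Plxna4 had 1.62 and 0.863 CPM at day 0 and 1.75 and 18.6 CPM at day 6 (3.12 ± 1.01), and in both day 6 replicate 3 stood far above replicate 2. Without it their log2 fold changes were 1.65 and 0.56, and Plxna4 no longer passed. Plxnb1 rose by 1.15 ± 0.12, and Plxnb2 had 68.3 and 58.9 CPM at day 0 and 83.1 and 79.0 CPM at day 6 (0.43 ± 0.094). Nrp2, the neuropilin that prefers Sema3f, had 13.0 and 10.9 CPM at day 0 and 75.4 and 109.5 CPM at day 6 (3.04 ± 0.20) (FDR = 5.87e-05). Nrp1, the neuropilin that prefers Sema3a, had 1.84 and 1.60 CPM at day 0 and 1.20 and 14.6 CPM at day 6 (2.29 ± 0.97), and 1 of its day 6 libraries lay below day 0 (FDR = 0.0828).

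All 3 Slits rose, and of the 3 Robo receptors tested 1 fell and 0 rose. Slit3 had 3.91 and 3.94 CPM at day 0 and 54.8 and 59.5 CPM at day 6 (3.95 ± 0.11), Slit2 had 3.67 and 1.58 CPM at day 0 and 6.42 and 12.6 CPM at day 6 (1.94 ± 0.46) and Slit1 had 0.196 and 0.330 CPM at day 0 and 1.11 and 1.92 CPM at day 6 (2.62 ± 0.45), with FDR values of 3.65e-06 to 0.0112. Robo4 had 9.20 and 9.18 CPM at day 0 and 1.39 and 1.09 CPM at day 6 (−2.80 ± 0.20) and fell (FDR = 7.34e-05). Robo1 had 50.0 and 42.2 CPM at day 0 and 34.7 and 88.2 CPM at day 6 (0.51 ± 0.39), and the day 6 libraries lay on either side of the day 0 ones. Robo3 had 0.196 and 0.157 CPM at day 0 and 0.133 and 0.480 CPM at day 6 (0.88 ± 0.68). Neither passed, and Robo2 had 0 counts at day 0 and 18 at day 6, below the filter.

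Netrin receptors rose in all 4 cases tested. Among them, Unc5c and Unc5d passed the filter on low counts through their day 6 counts alone. A fall could not have been counted for either, nor for the ligand Ntn4, which passed in the same way. Unc5b, a receptor of blood vessels, had 24.3 and 18.7 CPM at day 0 and 209 and 178 CPM at day 6 (3.25 ± 0.15) and was next to Epha1 in level per kb at day 6. Unc5a had 0.532 and 0.251 CPM at day 0 and 3.60 and 2.59 CPM at day 6 (3.04 ± 0.40), or 3.68 without day 0 replicate 2. Unc5c had 0 and 0.0942 CPM at day 0 and 0.355 and 0.829 CPM at day 6 (3.75 ± 0.98), with 0 and 6 counts at day 0, and without either day 0 replicate it did not pass. Unc5d had 0.196 and 0.141 CPM at day 0 and 0.414 and 0.698 CPM at day 6 (1.79 ± 0.49). Dcc, below the filter, had 0.0420 and 0.0157 CPM at day 0 and 0.0592 and 0.0436 CPM at day 6. Among the ligands, Ntn1 had 95.6 and 92.0 CPM at day 0 and 64.3 and 86.3 CPM at day 6 (−0.23 ± 0.14), which did not pass, while Ntn3 with 0.897 and 0.816 CPM at day 0 and 2.57 and 2.71 CPM at day 6 (1.71 ± 0.24) and Ntn4 with 0.126 and 0.298 CPM at day 0 and 0.503 and 0.843 CPM at day 6 (1.76 ± 0.55) rose. Ntn5 had 0.0840 and 0.126 CPM at day 0 and 0.0148 and 0.0291 CPM at day 6 and was not tested. The FDR of the 6 genes that rose was 1.62e-05 to 0.0306.

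The order of levels changed accordingly. Of the 69 members, 38 reached 1 CPM per kb at day 6, against 27 at day 0, and the median member went from 0.48 to 1.24 CPM per kb. Epha1 led at 79.4 ± 1.77 CPM per kb (SD, n = 2), followed by Unc5b at 33.0 ± 3.78, and the libraries of each were separate from those of the next gene. Epha2 and Ephb4 followed at 21.3 ± 3.75 and 16.7 ± 3.25 and overlapped with each other.

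**Figure D5:**
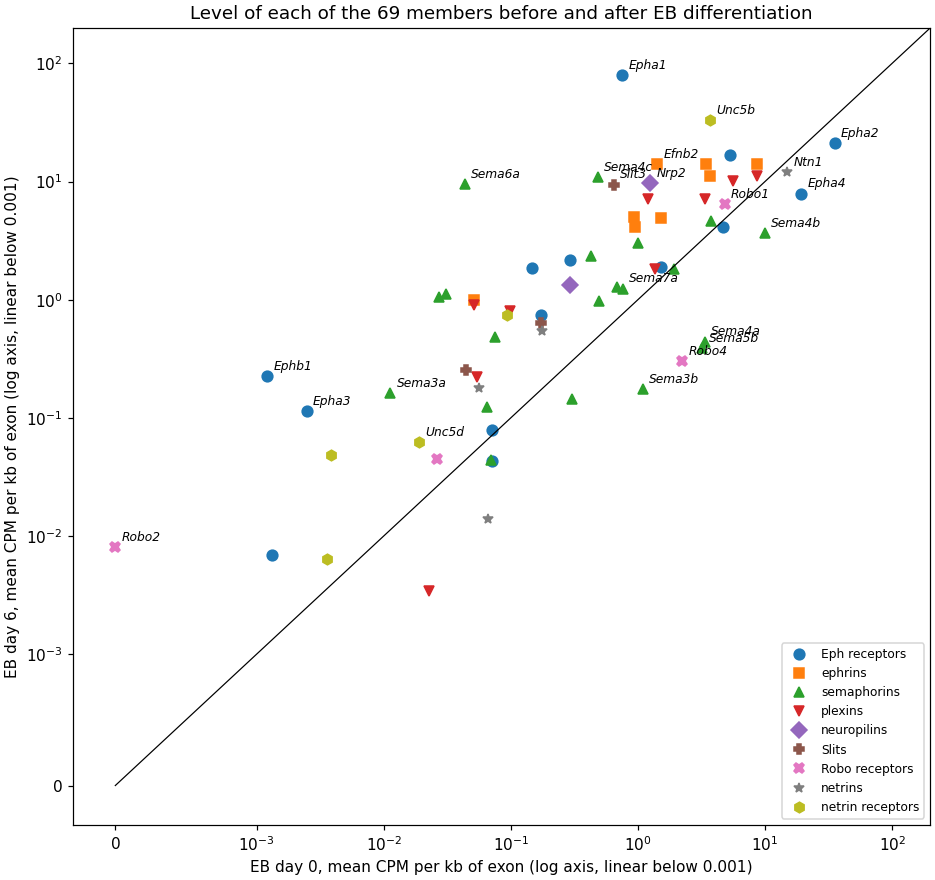
Mean level of each member in CPM per kb of exon at EB day 0 (x axis) and EB day 6 (y axis), on log axes that are linear near 0, with a line of equal level and 1 symbol for each family. Epha1 lies highest on the y axis at 79.4 CPM per kb, while Epha4 and Sema4b lie lower at day 6 than at day 0.

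The knockdown and the differentiation comparisons share no library, so their members can be set side by side. Of the 11 members that rose with shGas41-1, 8 also rose at least 2-fold at EB day 6 and 0 fell, namely Efnb2, Slit1, Sema3a, Sema3c, Sema3e, Unc5d, Plxnc1 and Ntn3. Of all 60 members tested in both comparisons, 34 rose at day 6. Over all genes that rose with shGas41-1 and were also tested at day 6, 327 of 1166 rose at day 6 (28.0%) and 316 fell (27.1%). Among all 17510 genes tested in both comparisons, 2517 rose at day 6 and 2660 fell. Of the 6 members that rose with shGas41-2, 5 rose at day 6, while among all genes that rose with shGas41-2 and were tested in both comparisons 115 of 608 rose (18.9%) and 197 fell (32.4%). Here too 34 of the 60 members tested in both rose at day 6, and among the 17558 genes 2524 rose and 2670 fell. Slit1 and Sema3a passed the filter with shGas41-1, and Sema3a and Unc5d at day 6, through the higher group alone. Efnb2 reached 77.2 and 57.1 CPM at day 6, above its level in every knockdown library. Sema6c, which fell with knockdown, had 11.6 and 11.3 CPM at day 0 and 10.3 and 11.0 CPM at day 6 (−0.017 ± 0.13).

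The EB day 0 cells and the shNT cells carry the same control vector and were compared as a background. Of the 61 members tested, 0 differed at least 2-fold, against 0.579% of all genes in either direction. At any fold 1 member passed, Plxna2 (0.71 ± 0.13, FDR = 0.0426), against 2.37% of all genes. This count moved with the shNT libraries: 11 members were higher at EB day 0 and 1 lower without the third, 5 were higher and 1 lower without the first, and 0 passed when any 1 of the other libraries was left out. Counts over all genes moved too. At least 2-fold, 210 genes were higher and 112 lower without the third shNT library and 128 and 57 without the first, against 83 and 22 with every library. The 2 control sets also differed by gene length. The median log2 difference of EB day 0 from shNT was −0.21 for genes up to 1 kb and 0.32 for genes over 8 kb. Plxna2 has 15093 bases of exon, and with length-adjusted offsets 0 members passed at any fold. Efnb2 lay just under both limits, at 5.77 and 7.88 CPM at EB day 0 against 4.10, 3.75 and 2.55 CPM in shNT (0.97 ± 0.23, FDR = 0.0591). The libraries of these 2 control sets did not overlap for Efnb2, and its knockdown libraries lay above both sets.

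Other genes of the guidance pathways were counted from 2 lists. Of 32 further guidance molecules listed, 24 were tested with shGas41-1, and 3 rose and 1 fell, against 7.9% and 2.4% of all genes. The adhesion molecules Flrt2 (1.53 ± 0.22, FDR = 0.00361), Cntn1 (1.33 ± 0.34) and Cntn3 (1.31 ± 0.34) rose and Hfe2, a relative of the repulsive guidance molecules known for iron control, fell (−1.04 ± 0.20), with a median of 0.30 over the list. With shGas41-2, 2 of 25 rose, Flrt2 (1.42 ± 0.22) and Islr2 (1.21 ± 0.16), and Hfe2 fell (−1.28 ± 0.31), against 3.96% and 0.869% of all genes, with a median of 0.15. At EB day 6, 16 of 28 rose and 3 fell, against 16.6% and 14.7% of all genes, with a median of 1.21, among them Lrrc4b (5.63 ± 0.51), Nrcam (4.67 ± 0.33) and Islr2 (−5.00 ± 0.22), while Lrrc4c had no count at day 0. Of 59 intracellular effectors, 4 rose and 2 fell with shGas41-1, against 7.9% and 2.4% of all genes, with a median of 0.018. The kinase Pak3 rose by 1.68 ± 0.27, Mical2 by 1.42 ± 0.23, and Ablim1 and Src fell, at −1.75 ± 0.35 and −1.19 ± 0.27. With shGas41-2, 1 rose, Pak3 (1.26 ± 0.26), and 0 fell, against 3.96% and 0.869% of all genes, with a median of −0.053. At EB day 6, 17 rose and 4 fell, against 16.6% and 14.7% of all genes, with a median of 0.47, and those that rose included Dpysl5 (3.88 ± 0.24), Farp1 (3.63 ± 0.13) and Grip1 (3.52 ± 0.16).

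Markers of other cell types were counted in the same way. With shGas41-1, 0 of 7 pluripotency markers rose and 2 fell, 2 of 5 neural markers rose, 2 of 7 mesoderm markers fell, 1 of 5 endothelial, 1 of 5 endoderm and 1 of 4 trophoblast markers rose, and 1 of 3 fibroblast markers fell. With shGas41-2 the endothelial marker Cdh5 and 1 endoderm marker rose at least 2-fold, and 0 of the pluripotency, neural, mesoderm, fibroblast and trophoblast markers changed at least 2-fold. At EB day 6, 0 pluripotency markers rose and 5 of 7 fell, 2 of 5 neural markers rose and 2 fell, 1 of 3 endothelial markers rose and 2 fell, 4 of 5 endoderm markers rose and 1 fell, and 3 of 4 fibroblast and 3 of 4 trophoblast markers rose. The summed endothelial markers lay between 42.0 and 72.1 CPM in ESC cultures and at 5.06 and 7.52 CPM at day 6. Within the knockdown comparison they summed to 44.7 to 60.3 CPM in shNT, 50.2 to 72.1 with shGas41-1 and 58.2 to 63.7 with shGas41-2. The fibroblast list summed to between 6.32 and 19.8 CPM in ESC cultures and to 24.8 and 29.9 CPM at day 6, and the trophoblast list to between 19.3 and 43.9 CPM and to 41.7 and 58.0 CPM. The part of these cell types in the knockdown results was not tested.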

How the data were processed

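RNA-seq of 12 libraries is described here, and the 15 ChIP-seq samples were not analysed here. The authors deposited 3 tables of gene counts. According to the submitters' processing notes and methods they used CASAVA 1.8.2, TopHat2 2.0.10 with Bowtie2 2.1.0, mm9 and HTSeq on libraries from a kit that does not mark strand, so reads of overlapping genes cannot be told apart. The tables also hold the authors' fold changes and p-values, which were not used. Counts were filtered (filterByExpr, minimum count 10, minimum total 15), scaled by TMM and tested with edgeR 4.0.16 (R 4.3.3) by quasi-likelihood over all genes of the 2 groups compared, with Benjamini-Hochberg adjustment. Calls required an FDR of 0.05 or less and, where stated, a 2-fold change. CPM were scaled by total counts. The code was tested on simulated data, where 2-fold changes were found less often than 4-fold ones. Calls there used an FDR of 0.05 alone. When the simulated spread followed the trend with level, 6.7% of calls were false for shGas41-1, 1.85% for shGas41-2 and 3.95% for EB day 6. When each gene had its own estimated spread, these shares were 7.1%, 10.4% and 18.8%, above the nominal share. The members and lists were chosen with earlier results of these data known. Members named with values in every library were those called in a knockdown, those changed at least 4-fold at EB day 6, the 10 highest per kb in shNT and families of 4 or fewer, with Unc5 and Dcc. Exon lengths come from the annotation of the authors' build, and promoter windows from RefSeq (GRCm38.p6). Alternatives were DESeq2 1.42.0, other scalings, no filter, halved counts (in case both mates of a pair were counted), a replicate block, each library left out and, chosen after seeing the data, offsets adjusted for length (loess span 0.3).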

Additional observations from a re-analysis of the deposited data

How the results depend on the processing

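Members at an FDR of 0.05 or less in the main run were followed through the alternatives, 15 with shGas41-1 and 7 with shGas41-2. At EB day 6 the 32 that also changed at least 4-fold were followed. Of their values, 145 of 195 kept their side of the threshold with shGas41-1, 62 of 84 with shGas41-2 and 334 of 352 at EB day 6, and 0 reversed. Other named members were not followed in this way. With shGas41-1, Efnb2, Unc5d, Plxnc1, Sema7a and Sema6c passed under every alternative run, and with shGas41-2 Efnb2 alone did among those called. Counts at an FDR of 0.05 or less alone were 4 lower with shGas41-1, 1 lower with shGas41-2, 1 higher for EB day 0 against shNT and 1 lower with both shRNAs. With library size alone 3 members rose with shGas41-2, and 669 of all genes did. With length-adjusted offsets, chosen after seeing the data, 1 fell with shGas41-2 and 1 with both. DESeq2 called 1 member at least 2-fold higher with shGas41-1 than with shGas41-2, and 37 of all genes. With the replicate number as a block, 4 rose and 1 fell with shGas41-1, 9 rose with shGas41-2 and 1 was higher at EB day 0 than in shNT. Over all genes these counts were 1019, 302, 1122 and 203. Samples with the same number correlated at 0.0050, 0.14 and −0.39 for shGas41-1, at 0.34 and 0.24 for shGas41-2 and at 0.055 for EB. With 2 libraries in each EB group this value is the same for both numbers by construction. These values cannot decide whether the number marks a pairing. The labels state none, and the main tests used none. Leaving out 1 library gave 5 to 10 higher and 1 to 2 lower with shGas41-1, 2 to 8 and 0 to 1 with shGas41-2, 22 to 41 and 5 to 6 at EB day 6, 2 to 7 and 0 to 1 with both, and 0 to 1 higher for EB day 0 against shNT. At an FDR of 0.05 or less alone these ranges were 5 to 13 higher and 2 to 4 lower, 2 to 10 and 0 to 9, 23 to 45 and 5 to 10 for the 2 shRNAs and EB day 6, and 0 to 11 and 0 to 1 for EB day 0 against shNT. The cause of these changes was not tested. Length-adjusted offsets moved the median of all genes with shGas41-1 from 0.020 to −0.097.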
